A study of Mus musculus with 2 samples.

Results

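The expression of 10 heat shock proteins and co-chaperones was examined in single cells from mouse lungs. The genes were Hspa1a, Hspa1b, Hspa5, Hspa8, Hsp90aa1, Hsp90ab1, Hspb1, Hsph1, Dnaja1 and Dnajb1. They were taken by symbol from the 31053 genes listed for both libraries, and all 10 were found. The choice used no threshold on a measured value, but it was made with earlier results of these data known. The lungs came from the NG2tdT mouse line, in which tamoxifen makes cells with an active NG2 (Cspg4) promoter, and their progeny, fluoresce red with tdTomato. NG2 is a proteoglycan of pericytes and of some smooth muscle cells. There was 1 library labelled Normoxia, from mice kept without hypoxia, and 1 labelled Hypoxia, from mice that breathed 10% oxygen for 21 days. Both groups carried the reporter and, per the series' design text, had tamoxifen at 2 mg for 30 g of body weight and then 7 days of rest. By the age range in the study's methods the mice were young adults. Whether several animals were pooled in a library is not clear from the sources used here. With 1 library per group there was no spread between replicates and no test was made, so each difference is one between these 2 libraries. Intervals are 95% intervals and cover counting error only.

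The retained cells numbered 293 in Normoxia, with 1112485 unique molecular identifiers (UMIs, of which each marks 1 transcript caught) and a median of 3135 per cell, and 453 in Hypoxia, with 1592173 UMIs and a median of 2818. The labels describe sorted tdT cells, but Cspg4 had a UMI in 1 Normoxia and 2 Hypoxia cells and Pdgfrb, the other mural gene checked, in 27 and 10, while the endothelial gene Pecam1 had one in 140 and 244 cells and the leukocyte gene Ptprc in 57 and 126. The 2 libraries shared 2 cell barcodes. Clustering, made without the 10 genes, gave 15 clusters. Endothelial cell-like cells (clusters 2, 3 and 7) numbered 94 in Normoxia and 190 in Hypoxia, fibroblast-like cells 39 and 21, macrophage or monocyte-like cells 28 and 45, T or NK cell-like cells 13 and 76, and B cell-like cells 31 and 54. Cluster 10, led by Car4, and cluster 6, led by Hhip and Rgs5, did not meet the naming rule and are given by number. Cluster 10 held 20 and 22 cells and had 10 endothelial and 3 type 1 pneumocyte markers. Cluster 6 held 45 and 6 cells. Cluster 3 held 14 Normoxia and 96 Hypoxia cells and cluster 4, the T or NK cell-like cells, came mostly from Hypoxia, so such a cluster can reflect a library as well as a cell type.

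Heat shock proteins are chaperones that keep other proteins folded. When unfolded proteins pile up in the cytosol, the transcription factor HSF1 binds heat shock elements, which are inverted repeats of the unit nGAAn, and switches on genes such as Hspa1a, Hspa1b, Hspb1, Hsph1 and Dnajb1. Hspa8 and Hsp90ab1 are made in unstressed cells, and Hspa5 works in the endoplasmic reticulum (ER), where it is switched on by the unfolded protein response through ER stress elements. Enzymatic digestion of tissue is known to raise both immediate early genes and heat shock genes in the cells it frees.

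The promoters that carry these elements are shown for Hspa1a and Hspb1, whose levels differed widely between clusters, and for Hspa1b, the near copy of Hspa1a. Each line gives the 250 bases before the RefSeq transcription start on GRCm38.p6, read 5′ to 3′ on the gene's strand, and capitals mark the letters GAANNTTC or TTCNNGAA, the core of a heat shock element, searched on both strands. The Hspa1a window is chr17:34972157-34972406 on the minus strand, the Hspa1b window chr17:34959239-34959488 on the minus strand, and the Hspb1 window chr5:135887669-135887918 on the plus strand.
Hspa1a: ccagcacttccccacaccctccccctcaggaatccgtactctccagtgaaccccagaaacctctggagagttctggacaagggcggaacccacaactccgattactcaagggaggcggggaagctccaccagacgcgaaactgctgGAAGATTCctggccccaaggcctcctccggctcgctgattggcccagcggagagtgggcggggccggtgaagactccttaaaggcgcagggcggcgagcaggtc
Hspa1b: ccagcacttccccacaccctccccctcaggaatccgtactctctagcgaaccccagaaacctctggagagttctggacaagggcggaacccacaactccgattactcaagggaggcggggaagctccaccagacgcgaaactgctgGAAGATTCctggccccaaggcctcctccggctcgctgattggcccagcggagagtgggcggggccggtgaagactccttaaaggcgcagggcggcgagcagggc
Hspb1: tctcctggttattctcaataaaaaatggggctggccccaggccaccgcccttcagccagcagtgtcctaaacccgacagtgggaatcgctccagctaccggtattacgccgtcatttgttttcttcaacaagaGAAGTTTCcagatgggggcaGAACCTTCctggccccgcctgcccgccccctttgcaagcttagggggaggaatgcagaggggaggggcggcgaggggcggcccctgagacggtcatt
The Hspa1a and Hspa1b windows were identical at 247 of 250 bases and each held 1 match, whereas the Hspb1 window held 2. The match occurred in 12.8% of 32851 promoter windows of the same length. The longer form GAANNTTCNNGAA or TTCNNGAANNTTC, found in 0.466% of windows, was in none of these 3. Among the other members, both windows of Hsph1, which overlap, held the same match. Of the 3 Dnaja1 windows 1 held a match, and neither Dnajb1 window held any. No window was available for Hspa8, Hsp90aa1 and Hsp90ab1, so these were not searched. Of 30 bases around the ER stress element of Hspa5 (chr2:34772020-34772049, plus strand), capitals mark the letters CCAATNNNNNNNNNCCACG, which 0.113% of windows held on either strand. This stretch lies downstream of the start of Hspa5 in the GENCODE annotation, and so inside the gene as that annotation draws it.
Hspa5: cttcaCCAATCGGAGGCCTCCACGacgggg
A match describes letters only and is not a measured binding site.

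The 10 genes were first compared over all retained cells. The inducible 70 kDa chaperone Hspa1a (chromosome 17, 34969190 to 34972156) had 175 and 259 UMIs in the Normoxia and Hypoxia library, a level of 157 and 163 CPM (counts per 1000000 UMIs of the same cells). The log2 fold change of Hypoxia over Normoxia was 0.05 (-0.23 to 0.33), so the summed level hardly differed. Its neighbour Hspa1b (chromosome 17, 34956436 to 34959238) had 20 UMIs in each library, 18.0 and 12.6 CPM, with a log2 fold change of -0.52 (-1.49 to 0.45). The 2 transcripts were identical at 84.3% of aligned bases over their length but at 46.8% over their last 500 bases, and of 410 windows of 91 bases at the 3′ end of Hspa1b, 0 occurred in Hspa1a. How reads from the part shared by the pair were counted was not checked, so the values of the 2 genes were also summed. Together they had 195 and 279 UMIs, or 175 CPM in both libraries, a log2 fold change of 0.00 (-0.27 to 0.27).

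Hspb1 (chromosome 5, 135887919 to 135889563), a small heat shock protein that binds unfolded proteins and actin, had 339 and 415 UMIs, or 305 and 261 CPM, a log2 fold change of -0.23 (-0.44 to -0.01). Hsph1 (chromosome 5, 149614287 to 149636376), which exchanges the nucleotide of the 70 kDa chaperones, was scarce at 13 and 36 UMIs, or 11.7 and 22.6 CPM, a log2 fold change of 0.95 (0.003 to 1.99). Dnajb1 (chromosome 8, 83608193 to 83612653) and Dnaja1 (chromosome 4, 40722150 to 40737149) are both J-domain co-chaperones that hand substrates to the 70 kDa chaperones. Dnajb1 had 104 and 124 UMIs, or 93.5 and 77.9 CPM, a log2 fold change of -0.26 (-0.65 to 0.13). Dnaja1 had 233 and 522 UMIs, or 209 and 328 CPM, a log2 fold change of 0.65 (0.42 to 0.88). Of the J-domain pair, only Dnaja1 thus had an interval that left out 0. Smu1 and Gm6297 overlap Dnaja1 on the other strand, with 55 and 79 UMIs for Smu1 and 0 and 7 for Gm6297, and whether counting used strand is not given in the sources used here. Hsp90aa1 (chromosome 12, 110690605 to 110702728), the inducible form of the 90 kDa chaperone, had 272 and 443 UMIs, or 244 and 278 CPM, a log2 fold change of 0.19 (-0.03 to 0.41).

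The constitutive chaperones had the most UMIs of the 10 genes. Hspa8 (chromosome 9, 40800984 to 40810087), which also strips clathrin from vesicles, had 1121 and 2120 UMIs, or 1008 and 1332 CPM, a log2 fold change of 0.40 (0.30 to 0.51). Hsp90ab1 (chromosome 17, 45567775 to 45573271), the constitutive form of the 90 kDa chaperone, had 1084 and 1909 UMIs, or 974 and 1199 CPM, a log2 fold change of 0.30 (0.19 to 0.41). Both were higher in the Hypoxia library. The ER chaperone Hspa5 (chromosome 2, 34771970 to 34777547) went the other way, with 349 and 388 UMIs, or 314 and 244 CPM, a log2 fold change of -0.36 (-0.58 to -0.15). These positions are on GRCm38.

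Read against all genes, the share of members past a fold of 1.5 was close to the background. Of the 10 members, 2 (Hsph1 and Dnaja1) were higher by at least 1.5-fold, as were 15.8% of the 9813 genes whose UMIs in both libraries summed to 20 or more, and 0 were lower by that fold, against 15.5% of genes. The interval lay above 0 for 4 members, against 13.1% of genes, and below 0 for 2, against 12.5%. Intervals narrow as counts grow, and 2 of these 4 members were the ones with most UMIs. The interval of Hsph1 held 0 in 7 and that of Hspb1 in 4 of the 8 alternatives that gave an interval over all cells. The median log2 fold change was 0.12 over the members and 0.04 over all genes. Summed over the 7 stress-inducible members the level was 1039 and 1142 CPM, a log2 fold change of 0.14 (0.03 to 0.24), and over Hspa8 and Hsp90ab1 it was 1982 and 2530 CPM, a log2 fold change of 0.35 (0.28 to 0.43). Cell classes were then given the same weight in both libraries. The log2 fold change of the stress-inducible sum became 0.00 and that of Hspa1a -0.88. This setting used only the 5 named classes with at least 10 cells in both libraries. It thus also left out clusters 6 and 10, where Hspa1a was higher in Hypoxia. The share of T or NK cell-like cells, which held 0 Hspa1a UMIs in either library, was 4.44% in Normoxia and 16.8% in Hypoxia. Without both kinds of lymphocyte-like cells the sum kept a log2 fold change of 0.14 and Hspa1a was at 0.17. How far cell makeup set the summed levels was not tested.

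**Figure D1:**
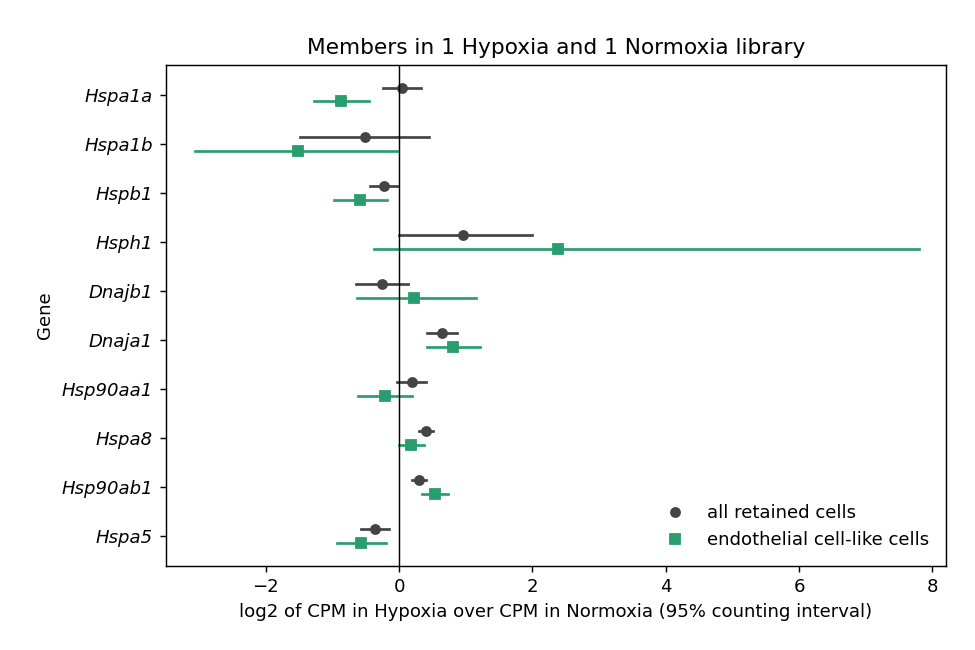
The log2 fold change of CPM in Hypoxia over Normoxia (horizontal axis) is plotted for each of the 10 genes (vertical axis) over all retained cells (dark circles) and over endothelial cell-like cells (green squares), with lines for the 95% counting interval. Hspa8, Hsp90ab1 and Dnaja1 lie to the right of 0 and Hspa5 to the left in both sets of cells, while Hspa1a lies at 0.05 over all cells and at -0.87 in endothelial cell-like cells.

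The levels were then set out for the 5 named classes with at least 10 cells in both libraries and for clusters 6 and 10. Neutrophil-like cells, with 2 cells in Normoxia and 28 in Hypoxia, were left out of this order. Among the inducible genes, Hspa1a differed widely between classes. In Normoxia it stood at 316 CPM (254 to 389) in endothelial cell-like cells, 275 CPM (189 to 386) in macrophage or monocyte-like cells, 197 CPM (131 to 285) in cluster 6, 75.9 CPM (24.7 to 177) in cluster 10 and 72.2 CPM (41.2 to 117) in fibroblast-like cells. The intervals of the first 3 overlapped, that of cluster 6 also overlapped that of cluster 10, and those of cluster 10 and fibroblast-like cells overlapped. B cell-like cells had 2 UMIs and T or NK cell-like cells 0, which allows up to 3. In Hypoxia the order was different, with 1367 CPM (866 to 2050) in cluster 6, 836 CPM (660 to 1045) in cluster 10, 173 CPM (143 to 208) in endothelial cell-like cells, 110 CPM (74.0 to 159) in macrophage or monocyte-like cells and 82.2 CPM (35.5 to 162) in fibroblast-like cells. Of these, clusters 6 and 10 stood above the rest beyond their intervals and overlapped each other, and cluster 6 held 6 cells there, of which 1 carried 16 of the 23 UMIs. B cell-like cells had 1 UMI and T or NK cell-like cells 0.

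Hspb1 was found mainly in vascular and mesenchymal clusters. Its Normoxia level was 1017 CPM (788 to 1292) in cluster 10 and 951 CPM (797 to 1126) in cluster 6, which did not differ beyond their intervals, and 313 CPM (251 to 385) in endothelial cell-like and 108 CPM (69.4 to 161) in fibroblast-like cells. In Hypoxia it was 2281 CPM (1983 to 2611) in cluster 10, 1010 CPM (588 to 1617) in cluster 6, 463 CPM (337 to 619) in fibroblast-like and 208 CPM (175 to 246) in endothelial cell-like cells. Cluster 10 was the highest in both libraries. Macrophage or monocyte-like cells had 4 UMIs in Normoxia, all in 1 cell, and 0 in Hypoxia, and B cell-like cells had 0 and 2. The 12 UMIs of T or NK cell-like cells in Normoxia were all in 1 cell, against 1 UMI in Hypoxia, so the 200 CPM of that class is the value of a single cell.

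The constitutive genes were detected in all 5 classes. Hspa8 ranged in Normoxia from 627 CPM (527 to 740) in fibroblast-like cells to 1587 CPM (1284 to 1940) in T or NK cell-like cells, and in Hypoxia from 822 CPM (652 to 1023) in fibroblast-like to 1525 CPM (1380 to 1682) in T or NK cell-like cells. T or NK cell-like cells, which had 0 Hspa1a UMIs, thus had the highest Hspa8 level of the 5 classes in both libraries. Their interval overlapped that of endothelial cell-like cells in Normoxia, 1184 CPM (1061 to 1317), and in Hypoxia those of endothelial cell-like cells, 1345 CPM (1258 to 1437), and of macrophage or monocyte-like cells, 1409 CPM (1269 to 1560). In Normoxia 1 T or NK cell-like cell held 35 of the 95 Hspa8 UMIs of its class. Hsp90ab1 ranged from 797 to 1470 CPM over the 5 classes in Normoxia and from 894 to 1391 CPM in Hypoxia. The 1470 CPM was that of T or NK cell-like cells, where 1 cell held 47 of the 88 UMIs. Hspa5 was lowest in lymphocytes. It stood at 184 CPM in T or NK and 238 CPM in B cell-like cells of Normoxia, against 329 to 365 CPM in the other classes, where the intervals overlapped, and at 152 and 169 CPM in Hypoxia, against 246 to 362 CPM, where the interval of T or NK cell-like cells (109 to 207) lay below that of endothelial cell-like cells (210 to 287). Dnajb1 had its highest Normoxia levels in macrophage or monocyte-like cells, 183 CPM (115 to 278), and in B cell-like cells, 164 CPM (105 to 243). Dnaja1 was lowest in B cell-like cells of Normoxia, 116 CPM (67.5 to 185), and among the 5 classes highest in endothelial cell-like cells of both libraries, at 235 CPM (182 to 299) and 413 CPM (365 to 466), although fibroblast-like cells of Normoxia were close at 225 CPM (167 to 297). The unnamed cluster 10 stood above them at 349 CPM (221 to 524) and 554 CPM (412 to 728), with overlapping intervals.

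**Figure D2:**
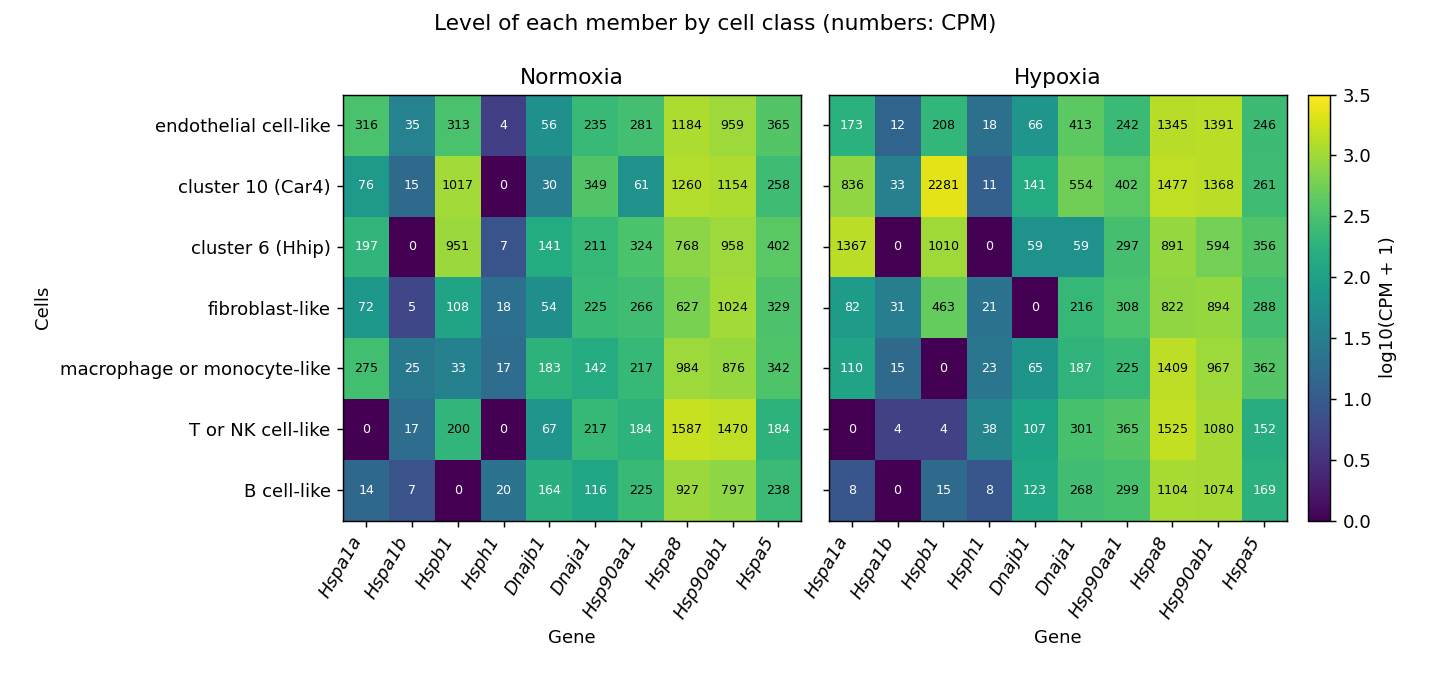
Each square gives the level of a gene (horizontal axis) in CPM in a cell class or numbered cluster (vertical axis) in the Normoxia (left) and Hypoxia (right) library, coloured on the scale log10(CPM + 1). Hspa1a and Hspb1 are dark in B and T or NK cell-like cells, apart from the 200 CPM that came from 1 cell, and Hspa8 and Hsp90ab1 are bright in every row.

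Each cell was thinned to 1000 UMIs before shares of cells with a gene were compared. Hspa1a was found in 6 of 89 endothelial cell-like cells of Normoxia (6.74%, 2.51 to 14.1%) and in 20 of 182 of Hypoxia (10.99%, 6.84 to 16.5%), where 5 and 8 shallower cells had been left out. Without thinning, the shares were 20.2% and 24.7%, at a median of 2612.5 and 2722.5 UMIs. The share of endothelial cell-like cells with Hspa1a was thus not lower in Hypoxia although its summed level was, and the intervals overlapped. Read against B cell-like and T or NK cell-like cells together, which gauge free RNA, Hspa1a had a UMI in 2 of 44 cells (4.55%, 0.555 to 15.5%) of Normoxia and 1 of 130 (0.769%, 0.0195 to 4.21%) of Hypoxia without thinning, at a median of 3889 and 2475 UMIs. Hspb1 had one in 2.27% and 2.31% of those cells. The club cell gene Scgb1a1, which lymphocytes do not make, had one in 20.5% and 37.7%, so these cells did carry free RNA. After thinning, Hspa1a was in 0 of 31 B and 0 of 13 T or NK cell-like cells of Normoxia, which allows up to 9.68% and 23.1%, and in 0 of 53 and 0 of 76 of Hypoxia, which allows up to 5.66% and 3.95%. In cluster 10 the thinned share with Hspa1a was 1 of 20 cells (5%, 0.127 to 24.9%) in Normoxia and 13 of 22 (59.1%, 36.4 to 79.3%) in Hypoxia, which did not overlap. Hspb1 was found there in 65.0% and 77.3% of cells, with overlapping intervals. Dnaja1 was found in 21.3% (13.4 to 31.3%) of endothelial cell-like cells of Normoxia and in 35.7% (28.8 to 43.1%) of Hypoxia.

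Endothelial cells line the vessels that remodel in hypoxia, so the endothelial cell-like cells were examined in more detail. Hspa1a had 90 and 113 UMIs, or 316 and 173 CPM, a log2 fold change of -0.87 (-1.28 to -0.45), and Hspb1 had 89 and 136 UMIs, or 313 and 208 CPM, a log2 fold change of -0.59 (-0.98 to -0.18). Hspa1b had 10 and 8 UMIs, too few for the minimum of 20. These were the 2 members lower by at least 1.5-fold, of 8 with at least 20 UMIs, while 13.7% of 6225 genes were lower by that fold. Neither result was stable. Of the Hspa1a UMIs in Normoxia, 81.1% were in 5 cells and 29 were in 1 cell. Without the top cell of each library the log2 fold change of Hspa1a was -0.52 (-0.99 to -0.04) and that of Hspb1 -0.42 (-0.84 to 0.01). With cluster 10 counted among the endothelial cells they were -0.09 (-0.45 to 0.28) and 0.06 (-0.22 to 0.34). With a mitochondrial maximum of 10% in place of 5% they were -0.08 and 0.51. That maximum came with new clustering and naming, which gave 88 Normoxia and 205 Hypoxia endothelial cell-like cells, so the class itself changed.

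Dnaja1, with 67 and 270 UMIs or 235 and 413 CPM, had a log2 fold change of 0.81 (0.42 to 1.22) and was the 1 member higher by at least 1.5-fold, against 17.1% of genes. With endothelial cells chosen singly it was at 0.43 (0.09 to 0.79), short of that fold. Hsp90ab1 had 273 and 909 UMIs, or 959 and 1391 CPM, a log2 fold change of 0.54 (0.34 to 0.74), and Hspa8 337 and 879 UMIs, or 1184 and 1345 CPM, a log2 fold change of 0.18 (0.0014 to 0.37). Hspa5 had 104 and 161 UMIs, or 365 and 246 CPM, a log2 fold change of -0.57 (-0.93 to -0.20). The interval lay below 0 for 3 members (Hspa1a, Hspa5 and Hspb1), against 8.27% of genes, and above 0 for 3 (Hspa8, Hsp90ab1 and Dnaja1), against 8.18%. Hspa8, Hsp90ab1 and Dnaja1 were above 0 and Hspa5 below 0 in all 13 alternatives run in these cells, as point values. Of the 11 that gave an interval, that of Hspa8 held 0 in 4 and that of Hspa5 in 1. Hsp90aa1 had a log2 fold change of -0.22 (-0.61 to 0.19), and was above 0 in 7 of the 13, reaching 0.65 (0.19 to 1.13) with endothelial cells chosen singly. Dnajb1 had 16 and 43 UMIs, a log2 fold change of 0.23 (-0.63 to 1.16), and Hsph1 had 1 and 12 UMIs. The stress-inducible sum was 1240 and 1132 CPM, a log2 fold change of -0.13 (-0.32 to 0.06), and without the top cell of each library it was 0.07.

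Within the endothelial cell-like class the clusters went in opposite directions for Hspa1a. In cluster 2, led by Plvap, it had 51 and 15 UMIs, or 361 and 82.7 CPM, a log2 fold change of -2.12 (-3.06 to -1.27), and 86.3% of the Normoxia UMIs were in 5 cells. In cluster 7, led by Scgb1a1 and Vwf, it had 37 and 26 UMIs, a log2 fold change of -1.02 (-1.80 to -0.26), but 29 of the 37 were in 1 cell and without the top cells the log2 fold change was 0.71 (-0.54 to 2.10). In cluster 3, led by Ntrk2, it had 2 and 72 UMIs, or 55.3 and 225 CPM, a log2 fold change of 2.03 (0.12 to 5.10). Cluster 10 showed the widest gap, with 5 and 77 UMIs, or 75.9 and 836 CPM, a log2 fold change of 3.46 (2.18 to 5.12). There 5 of 20 cells had a UMI in Normoxia and 17 of 22 in Hypoxia, and the highest Hypoxia cell held 14 of the 77. Without the top cells the log2 fold change was 3.51 (2.09 to 5.43), so it did not rest on 1 cell. The differences between clusters were not tested.

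Hspb1 also differed in direction between clusters, but in cluster 2 it was not lower in Hypoxia as Hspa1a was. It had 68 and 44 UMIs in cluster 7, or 635 and 289 CPM, a log2 fold change of -1.14 (-1.72 to -0.57), but 1 and 55 UMIs in cluster 3, a log2 fold change of 2.64 (0.10 to 7.97). In cluster 2 it had 20 and 37 UMIs, a log2 fold change of 0.53 (-0.29 to 1.39). In cluster 10 it had 67 and 210 UMIs, a log2 fold change of 1.16 (0.76 to 1.58), and it was detected in 17 of 20 and 21 of 22 cells. Hsp90aa1 in cluster 10 had 4 and 37 UMIs, or 60.7 and 402 CPM, a log2 fold change of 2.73 (1.25 to 4.68), and Dnajb1 there had 2 and 13, a log2 fold change of 2.22 (0.07 to 5.41). The stress-inducible sum in cluster 10 was 1549 CPM (1263 to 1880) in Normoxia against 4257 CPM (3846 to 4700) in Hypoxia, a log2 fold change of 1.46 (1.14 to 1.79), and that of Hspa8 and Hsp90ab1 was 2414 and 2845 CPM, a log2 fold change of 0.24 (-0.05 to 0.53). Each of the 7 stress-inducible members had a higher CPM in Hypoxia in cluster 10, although Hspa1b rested on 1 and 3 UMIs and Hsph1 on 0 and 1. The share of all genes with a higher CPM there was not counted, so no shared rise of the members is read from this. Hspa5 stood there at 258 CPM (150 to 413) and 261 CPM (167 to 388). The cells of cluster 10 had a median of 2902.5 UMIs and a median mitochondrial share of 2.42% in Normoxia, against 3974.5 UMIs and 2.15% in Hypoxia.

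**Figure D3:**
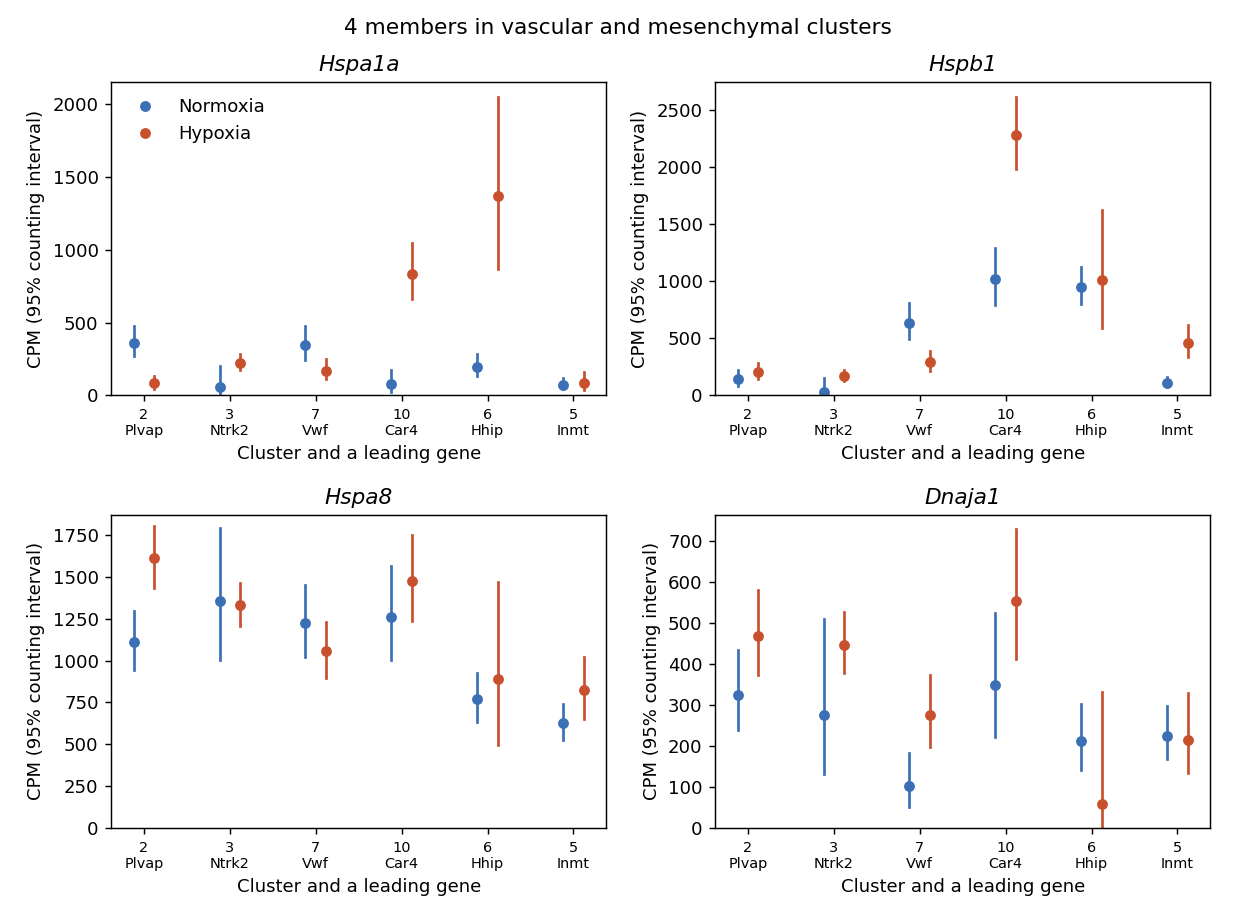
The level in CPM (vertical axis, from 0) of Hspa1a, Hspb1, Hspa8 and Dnaja1 is plotted for clusters 2, 3, 7, 10, 6 and 5 (horizontal axis, with a leading gene of each) in Normoxia (blue) and Hypoxia (red), with lines for the 95% counting interval. Hspa1a is lower in Hypoxia in clusters 2 and 7 and higher in clusters 3, 10 and 6, whereas Dnaja1 is higher in Hypoxia in clusters 2, 3, 7 and 10, with intervals that meet in all but cluster 7.

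Outside the endothelium, Hspb1 in fibroblast-like cells had 24 and 45 UMIs, or 108 and 463 CPM, a log2 fold change of 2.10 (1.35 to 2.88), and was detected in 10 of 39 and 10 of 21 cells. The highest cell held 14 of the 45, and without the top cells the log2 fold change was 2.22 (1.31 to 3.19). Dnajb1 in the same cells had 12 and 0 UMIs, at least 1.75-fold lower in Hypoxia when a count of 0 is taken to allow 3. The counting interval of its log2 fold change reached up to -0.29. However, 6 of the 12 UMIs were in 1 cell, and without the top cells the interval reached up to 0.98 and held 0. In cluster 6 Hspb1 was 951 and 1010 CPM, a log2 fold change of 0.09 (-0.73 to 0.82). Macrophage or monocyte-like cells had lower Hspa1a in Hypoxia, with 33 and 29 UMIs or 275 and 110 CPM, a log2 fold change of -1.32 (-2.09 to -0.55), and lower Dnajb1, with 22 and 17 UMIs, a log2 fold change of -1.50 (-2.51 to -0.52). Hspa8 was higher there, with 118 and 370 UMIs, a log2 fold change of 0.52 (0.22 to 0.83). The clusters that made up this class differed between libraries, since cluster 9 held 19 and 10 cells, cluster 12 held 9 and 20, and cluster 14 held 0 and 15. Within cluster 9 Hspa1a had 32 and 6 UMIs, a log2 fold change of -2.16 (-3.71 to -0.88), while within cluster 12 it had 1 and 23, a log2 fold change of 3.07 (0.45 to 8.44). In B cell-like cells Dnaja1 had 17 and 35 UMIs, a log2 fold change of 1.21 (0.34 to 2.14), and Hsp90ab1 117 and 140, a log2 fold change of 0.43 (0.06 to 0.80). In T or NK cell-like cells Hsp90ab1 went the other way, with 88 and 284 UMIs and a log2 fold change of -0.44 (-0.79 to -0.08). However, 47 of the 88 Normoxia UMIs were in 1 of 13 cells. Hsp90aa1 had 11 and 96 UMIs in this class, a log2 fold change of 0.99 (0.09 to 2.04).

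Immediate early genes, which encode transcription factors and feedback regulators that cells switch on within minutes of a stimulus, were lower in Hypoxia. Of 14 listed genes, 12 were lower by at least 1.5-fold over all retained cells, against 15.5% of all genes tested. Higher by that fold were 0, against 15.8%, and the median log2 fold change of the 14 was -0.94. Summed, they stood at 8640 CPM in Normoxia against 4464 CPM in Hypoxia, a log2 fold change of -0.95 (-0.997 to -0.908), and 4971 and 3105 CPM in endothelial cell-like cells, a log2 fold change of -0.68 (-0.78 to -0.58). Egr1 had 402 and 142 UMIs, a log2 fold change of -2.02, Fosb 331 and 118, a log2 fold change of -2.01, and Atf3 219 and 81, a log2 fold change of -1.95, whereas Ier3 had 147 and 282, a log2 fold change of 0.42. Few of these UMIs of Egr1 and Fosb lay in endothelial cell-like cells. There Egr1 had 12 and 13 UMIs, a log2 fold change of -1.08 (-2.33 to 0.18). Fosb had 18 and 13, at -1.67 (-2.82 to -0.56), and Atf3 had 44 and 11, at -3.20 (-4.30 to -2.22). The summed level of the immediate early genes moved with Hspa1a in some clusters and not in others. In cluster 2, where Hspa1a was lower in Hypoxia, their sum was 6221 and 2852 CPM, and in cluster 10, where Hspa1a was higher, it was 4510 and 3486 CPM. The part of these genes, or of tissue digestion, in the levels of the heat shock genes was not tested.

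The other chaperones showed no common shift. Of 45 other cytosolic chaperones and co-chaperones with at least 20 UMIs, 6 were lower and 4 higher by at least 1.5-fold over all retained cells, with a median log2 fold change of 0.03, where 15.5% and 15.8% of all genes tested were lower and higher. The lowest were the small heat shock proteins Hspb8, with 50 and 21 UMIs and a log2 fold change of -1.77 (-2.58 to -1.01), and Cryab, with 123 and 84 UMIs and a log2 fold change of -1.07 (-1.49 to -0.66), and the J-domain protein Dnajb4, with 76 and 49 UMIs and a log2 fold change of -1.15 (-1.70 to -0.61). The highest were Hspa12b, a 70 kDa family member of endothelial cells, with 47 and 125 UMIs and a log2 fold change of 0.89 (0.40 to 1.41), Hspa4l, with 19 and 50 UMIs and a log2 fold change of 0.88 (0.09 to 1.72), and the heat shock transcription factor Hsf1, with 21 and 52 UMIs and a log2 fold change of 0.79 (0.03 to 1.60). In endothelial cell-like cells Hspa12b had 26 and 108 UMIs, a log2 fold change of 0.86 (0.23 to 1.53). Cryab was there at -0.81 (-1.37 to -0.23). The intervals of Hspb8, Dnajb4, Hspa4l and Hsf1 held 0 in these cells.

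Of the 7 subunits of the cytosolic chaperonin found in the files, which folds actin and tubulin, 0 passed 1.5-fold in either direction over all retained cells, from Tcp1 at a log2 fold change of -0.45 (-0.78 to -0.12) to Cct7 at 0.36 (0.07 to 0.66). Among 8 mitochondrial chaperones 2 were lower (Clpb, a log2 fold change of -0.69, and Dnaja3, -0.60, with intervals that held 0) and 0 higher. Hspd1, the mitochondrial 60 kDa chaperone, had 67 and 134 UMIs, a log2 fold change of 0.48 (0.05 to 0.93), but -0.08 (-0.81 to 0.68) in endothelial cell-like cells. The ER chaperones and unfolded protein response genes, the partners of Hspa5, stood at a median of -0.13 (log2) over 28 genes, of which 4 were lower and 1 higher by 1.5-fold, and the interval lay below 0 for 7 and above 0 for 1. Of all genes tested, 15.5% were lower and 15.8% higher by that fold, and 12.5% had an interval below 0 and 13.1% above it. The collagen chaperone Serpinh1 had 582 and 392 UMIs, a log2 fold change of -1.09 (-1.28 to -0.90), but -0.22 (-0.53 to 0.11) in endothelial cell-like cells. Sdf2l1, an ER partner of Hspa5, had 79 and 70 UMIs over all retained cells, a log2 fold change of -0.69 (-1.18 to -0.21), and 24 and 15 in endothelial cell-like cells, a log2 fold change of -1.88 (-2.91 to -0.89). Creld2, also an ER protein of the unfolded protein response, had 23 and 59 UMIs, a log2 fold change of 0.84 (0.12 to 1.60), and so lay on the other side of 0 from Hspa5.

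**Figure D4:**
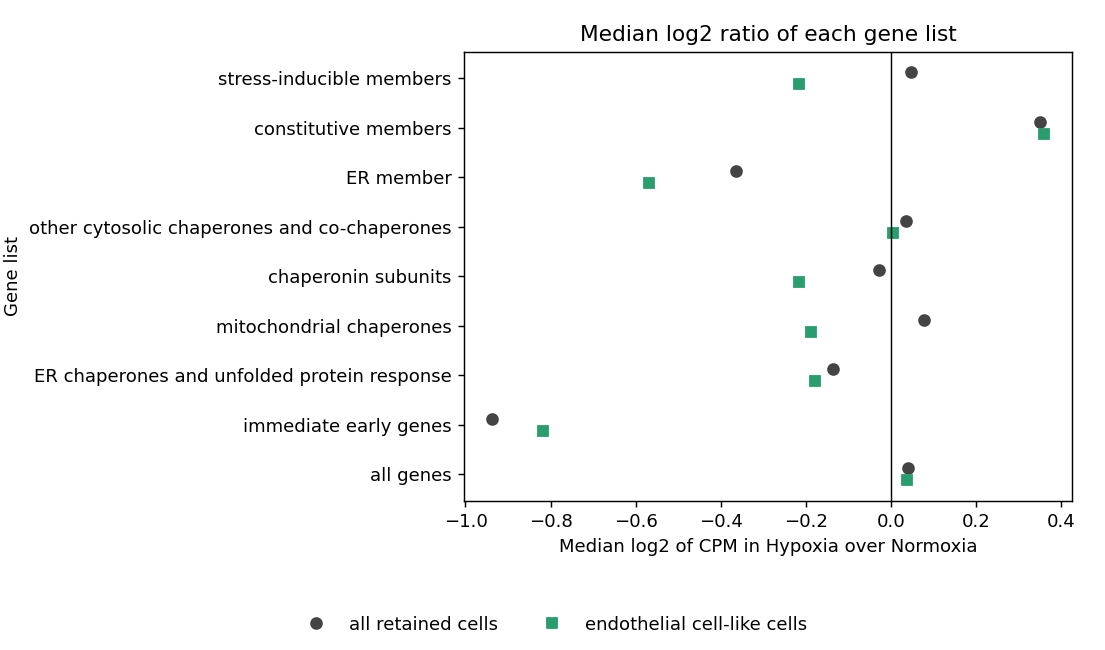
The median log2 fold change of CPM in Hypoxia over Normoxia (horizontal axis) is plotted for each gene list (vertical axis) over all retained cells (dark circles) and endothelial cell-like cells (green squares), for genes with at least 20 UMIs. The immediate early genes lie at -0.94 and -0.82, apart from the chaperone lists, and the median of all genes is 0.04 in both.

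The 10 genes did not share one pattern over the classes. Over 10 points, the sums of 5 named classes in 2 libraries, Pearson's r of log2(CPM + 10) was 0.88 between Hspa1a and Hspa5 and 0.71 between Hsp90ab1 and Dnaja1, but -0.29 between Hspa1a and Hspa8 and -0.66 between Hspb1 and Dnajb1. The points share libraries and differ in depth, so these values only describe the profiles. A set of 2753 genes, members included, was compared with the mean standardised profile of the 7 stress-inducible members. The non-members most like it were the ubiquitin gene Ubb (r = 0.94), the early endosome GTPase Rab5a (0.92), the phosphatase Ssu72 (0.90), the arginine methyltransferase Prmt1 (0.90) and the ER protein Manf (0.90). Ubb was highest in endothelial cell-like cells, at 3566 CPM in Normoxia and 3575 CPM in Hypoxia, and lowest in B cell-like cells of Normoxia at 1635 CPM.

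Within single cells, thinned to 1000 UMIs, the cells with Hspa1a were compared with the rest among endothelial cell-like and cluster 10 cells together. In Hypoxia, Hspb1 was found in 13 of 33 cells with Hspa1a (39.4%, 22.9 to 57.9%) and in 32 of 171 without it (18.7%, 13.2 to 25.4%), and Dnajb1 in 5 of 33 (15.2%, 5.11 to 31.9%) and 11 of 171 (6.43%, 3.25 to 11.2%). The intervals overlapped in both cases. In Normoxia 7 cells had Hspa1a after thinning, of which 1 had Hspb1 and 0 had Dnaja1, so joint detection could not be read at this depth.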

How the data were processed

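Single-cell RNA sequencing had been carried out with the Chromium 3′ chemistry on 1 Normoxia and 1 Hypoxia library. The deposited values are counts of UMIs for each gene and barcode, not normalized by the authors. Per the file headers these came from Cell Ranger 3.1.0, and the study's methods name STAR and the mouse genome mm10. A UMI marks 1 captured molecule at the 3′ end, so counts are not scaled by gene length. The labels mention replicates, but 1 matrix per group was analysed. The study's text describes a whole-lung suspension depleted of CD45 and CD326 cells and the labels describe sorted cells; which of these was loaded was not settled here.

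Barcodes with 200 to 6000 genes and a mitochondrial share of 5% or less were retained, as in the study's methods, which kept 78.6% of 373 Normoxia and 73.9% of 613 Hypoxia barcodes. The clustering used genes found in 3 cells or more. Cells were clustered with scanpy 1.11.5 (10000 UMIs per cell, 2000 variable genes, 15 principal components, 15 neighbours, Leiden resolution 1.0) without the members, the chaperone lists and the immediate early genes. A marker counted for a cluster when found in at least 25% of its cells at 2 times the median CPM over clusters or more. A name needed at least 3 such markers, more than any other class, with no other class ahead among the 10 leading genes. Doublets were kept, and Scrublet marked 1 Normoxia and 2 Hypoxia cells.

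CPM was the UMI sum of a gene over a class in a library, scaled by the total of the same cells, with exact Poisson intervals. Ratios have exact conditional binomial and shares exact Clopper-Pearson intervals at 95%. A count of 0 was taken to allow 3 counts. The script was tested on simulated counts for Hypoxia against Normoxia over all retained cells. Of 9813 genes, 200 were changed, 95.9% of intervals held the true ratio, and 86.2% of 2-fold and 94.3% of 4-fold changes were recovered. The counts were drawn per library with counting error only, as the intervals assume. These figures thus do not cover genes whose UMIs gather in few cells. Positions come from GENCODE M21 and promoters from RefSeq.

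The members and lists were chosen with earlier results of these data known. All members are named. From each list the 3 highest and 3 lowest ratios with at least 50 UMIs were eligible, and the likeness search took the 5 genes with the highest r. Alternatives were other filters, totals, weights, endothelial definitions, resolutions and thinning to 2000 UMIs. Endothelial cells with cluster 10, equal cluster makeup and all cells without lymphocytes were chosen after seeing the data.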

Additional observations from a re-analysis of the deposited data

Results flagged for a closer look

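Several members differed between the libraries in opposite directions in different clusters, with intervals of counting error that left out 0 on both sides. The differences between clusters were not tested, and with 1 library per group each ratio compares 2 libraries.

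The log2 fold change of Hspa1a in Hypoxia over Normoxia was 2.03 in cluster 3 and 3.46 in cluster 10, but -2.12 in cluster 2 and -1.02 in cluster 7, where 29 of the 37 Normoxia UMIs were in 1 cell and the value without the top cells was 0.71. It was -2.16 in cluster 9, which was macrophage or monocyte-like, but 3.07 (0.45 to 8.44) on 1 and 23 UMIs in cluster 12 of the same class, and 2.79 (1.93 to 3.64) in cluster 6, or 1.66 there without the top cells, clusters with fewer than 10 cells in a library. That of Hspb1 was 2.64 in cluster 3, 2.10 in cluster 5 (fibroblast-like) and 1.16 in cluster 10, but -1.14 in cluster 7. Hsp90aa1 was at 0.99 in cluster 4 (T or NK cell-like) and 2.73 in cluster 10, but at -0.80 in cluster 7, where 1 cell held 23 of the 44 Normoxia UMIs and 1 held 17 of the 36 Hypoxia UMIs. Hsp90ab1 was at 0.46, 0.73 and 0.49 in clusters 2, 3 and 7 and at 0.45 in cluster 8 (B cell-like), but at -0.44 in cluster 4. There 1 cell held 47 of the 88 Normoxia UMIs. In cluster 3 the Normoxia side rested on 14 cells, with 2 UMIs of Hspa1a and 1 of Hspb1.

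The barcodes left out for their mitochondrial share, 51 in Normoxia and 141 in Hypoxia, also held the members. Counted without haemoglobin, Hspa8 and Hsp90ab1 together stood at 1545 CPM in Normoxia and 2416 CPM in Hypoxia in these barcodes, a log2 fold change of 0.64 (0.38 to 0.91). These cells were not used in the comparisons.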

How the results depend on the processing

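Of 228 values of single members under the alternatives, 211 moved by less than counting error and 17 further. Counted separately, 17 lay on the other side of 0 from the reported value, whether or not they moved by more than that error. The 2 sets of 17 are not the same values. As point values Hspa8, Hsp90ab1 and Dnaja1 stayed above 0 and Hspa5 below 0 in the 10 alternatives over all cells and the 13 in endothelial cell-like cells. In the latter, Hspb1 turned to 0.51 with a mitochondrial maximum of 10%, 0.95 with none, 0.34 with single cells chosen by endothelial markers, 0.060 with cluster 10 and 0.024 with equal cluster makeup, and Hspa1a to 0.13 with single cells chosen. The mitochondrial and gene maxima came with new clustering and naming, so the endothelial cell-like class itself changed with them. Hsp90aa1, at -0.22, was 0.22 with a mitochondrial maximum of 10%, 0.25 with none and 0.65 (0.19 to 1.13) with single cells chosen. With those, Dnaja1 fell short of 1.5-fold at 0.43. The stress-inducible sum over all cells, 0.14, turned to -0.0026 with equal class makeup over the 5 named classes alone. In endothelial cell-like cells it was -0.13, but 0.40 with a mitochondrial maximum of 10%, 0.44 with none, 0.32 with equal weight per cell, 0.073 without the top cells, 0.37 with single cells chosen, 0.23 with cluster 10 and 0.19 with equal cluster makeup. The number of members lower by 1.5-fold over all cells, 0, was 1 without Scrublet-marked cells, 1 with equal weight per cell and 2 with equal class makeup. In endothelial cell-like cells it was 2, but 0 with either mitochondrial alternative, a maximum of 4000 genes, equal weight per cell, the top cells left out or a fold of 2, and 1 with the reduced total, median of ratios, single cells chosen, resolution 1.5, cluster 10 or equal cluster makeup. With single cells chosen and with cluster 10 that member was Hspa1b, at -1.22 and -1.09, and neither Hspa1a nor Hspb1 was lower by 1.5-fold. The cause of these changes was not tested. The share of endothelial cell-like cells with Hspa1a was 17.6% in Normoxia and 19.4% in Hypoxia when thinned to 2000 UMIs. No paired analysis was possible because each group had 1 library, and for the same reason no replicate could be left out.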
